A study of Canis lupus familiaris with 29 samples.

Results

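TNFAIP3, CXCL8 and ICAM1 are 3 genes that the transcription factor NF-kB is known to switch on. Their RNA was followed here in lymph nodes of dogs with large B-cell lymphoma, as 3 rows of a table of 24580 genes. In the table TNFAIP3 is ENSCAFG00000000267, CXCL8 is ENSCAFG00000003029 and ICAM1 is ENSCAFG00000031460. The genes were chosen by the study's own list of differences between Day 4 and Day 0 in the dogs given valspodar. The levels and changes of the 3 genes in the valspodar dogs are therefore given as a description, with no test.

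All dogs were pets with newly diagnosed disease, randomized to valspodar, an oral blocker of the drug efflux pump ABCB1, at 7.5 mg/kg morning and evening, or to an equivalent placebo. The placebo group had 6 libraries at Day 0, before treatment, and 5 at Day 4, and the valspodar group had 9 at each day. Each dog is 1 replicate, and 14 of the 15 dogs had both days. Recorded ages ran from 5.3 to 10.4 years in the placebo dogs and from 3.8 to 11.6 years in the valspodar dogs, with the age of 1 placebo dog missing. Doxorubicin had not yet been given at either biopsy. Day 0 nodes were sampled by wedge biopsy and Day 4 nodes by tru-cut needle, so the day and the kind of biopsy cannot be told apart. The trial sites were Minnesota (MN, 8 dogs), Pennsylvania (PENN, 3 dogs) and PD (4 dogs).

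NF-kB waits in the cytoplasm, held by inhibitor proteins, until signals from cytokine, antigen or pathogen receptors release it to the nucleus. TNFAIP3 encodes A20, an enzyme that edits ubiquitin on the signalling proteins upstream of NF-kB and so brakes the pathway that induces it. CXCL8 encodes interleukin-8, a secreted chemokine that draws neutrophils, and ICAM1 encodes a surface adhesion molecule that leukocyte integrins bind. In large B-cell lymphoma, NF-kB activity is a well-known feature, and the gene for A20 is often damaged. A lymph node also holds macrophages, vessels and blood leukocytes, and each of these can express the 3 genes. In whole-tissue RNA, fewer cells of a type and less RNA per cell cannot be told apart.

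Levels are FPKM, the fragments counted for a gene divided by its exon length and scaled for the size of the library, which can be compared between genes because they are per length. The sums over genes ran from 749450 to 1513960 FPKM per library, and the 10 highest genes held from 9.86% to 40.6% of the sum, the most in the Day 4 library of placebo dog PENN04. The study's methods name a scaling by each library's own mapped fragments (classic-fpkm). The median-ratio factors of the deposited libraries, however, lay between 0.997 and 1.02 despite that spread, as they would after scaling all libraries to a common median. Which scaling the values carry was not settled here, and levels in different libraries are to be read with that limit. FPKM does not give read numbers, but the values of rare genes move in steps of 1 read. From these steps, 1 read was worth most FPKM, 6.41 times its worth in the deepest library, in the Day 4 library of valspodar dog MN02, against at most 2.17 times in the other 28. The same library was the least like the other day of its own dog (Spearman 0.918 over genes, against 0.924 to 0.984 for the other dogs). It read 9.57 FPKM for TNFAIP3, 2.21 for CXCL8 and 17.7 for ICAM1, inside the range of the other valspodar libraries of Day 4 for each gene. The labelled tissue could not be checked with B-cell or T-cell markers, since the files do not pair identifiers with names and 0 of the 7 genes listed for either cell type had an identifier in the sources used here.

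Over all 29 libraries the 3 genes were expressed at moderate levels and varied widely. The mean was 16.6 FPKM for TNFAIP3, 11.2 for CXCL8 and 16.2 for ICAM1, above the mean of 53.1%, 40.8% and 52.3% of the 11677 genes tested. The SD of log2(FPKM + 1) over libraries was 0.84 for TNFAIP3, 1.59 for CXCL8 and 0.77 for ICAM1, above that of 89.0%, 97.5% and 87.2% of the same genes. CXCL8 spanned the widest range of the 3, from 0.189 FPKM in the Day 0 library of valspodar dog PENN03 to 111 FPKM in the Day 0 library of placebo dog MN08. The Day 4 library of valspodar dog MN03 was the only library among the 5 highest for all 3 genes, first for TNFAIP3 and ICAM1 and next to highest for CXCL8.

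TNFAIP3, the A20 gene, was near 10 FPKM in most nodes and stood far above it in a pair of them. In the placebo dogs the lowest, median and highest levels at Day 0 were 5.02, 10.6 and 18.9 FPKM. At Day 4 the 5 placebo libraries read 14.05 FPKM in MN05, 10.05 in MN08, 7.24 in MN09, 11.2 in PENN04 and 25.4 in PENN05. In the valspodar dogs the lowest, median and highest were 7.27, 10.2 and 16.2 FPKM at Day 0 and 8.74, 10.6 and 105 FPKM at Day 4. Both high Day 4 values came from MN03, at 105 FPKM, and PENN03, at 63.1 FPKM, and the next highest valspodar library of Day 4 read 12.02 FPKM. The medians of the 4 groups thus lay between 10.2 and 11.2 FPKM, and the ranges of all groups overlapped.

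Within dogs, TNFAIP3 went from 14.5 to 105 FPKM in MN03 and from 11.2 to 63.1 FPKM in PENN03, 7.24 and 5.64 times their Day 0 levels. It was higher at Day 4 in 7 of 9 valspodar dogs, but outside these dogs the largest increase was from 7.27 to 10.3 FPKM, in PD05. Over the 9 valspodar dogs, TNFAIP3 averaged 11.1 ± 2.91 FPKM before and 26.8 ± 34.2 FPKM after treatment (SD). Over the 7 without MN03 and PENN03 the averages were 10.5 ± 3.005 FPKM and 10.4 ± 1.08 FPKM (SD), and the mean log2 change was 0.01 ± 0.40 in place of 0.58 ± 1.19. These 2 dogs made up 101% of the summed change of all 9, and the other 7 summed to slightly below 0.

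CXCL8, the neutrophil chemokine gene, was low in most Day 0 nodes and very high in single nodes of both treatment groups. The lowest, median and highest levels at Day 0 were 0.660, 1.77 and 111 FPKM in the placebo dogs and 0.189, 2.52 and 15.7 FPKM in the valspodar dogs. At Day 4 the placebo libraries read 5.95 FPKM in MN05, 18.4 in MN08, 7.53 in MN09, 10.5 in PENN04 and 5.05 in PENN05. The valspodar libraries of Day 4 had a lowest, median and highest level of 0.574, 4.23 and 94.9 FPKM. The highest placebo value came from MN08 at Day 0, where the other 5 placebo nodes read at most 3.31 FPKM, and the highest valspodar values of both days came from MN03. The median was thus higher in the placebo than in the valspodar nodes at Day 4, with overlapping ranges.

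CXCL8 was higher at Day 4 in 7 of 9 valspodar dogs, and lower in MN06, from 3.26 to 0.574 FPKM, and PD03, from 2.52 to 1.57 FPKM. MN03 alone, from 15.7 to 94.9 FPKM, gave 86.0% of the summed increase of these dogs. PENN03 went from 0.189 to 6.97 FPKM, against 7.20 FPKM in MN10 and 5.46 FPKM in PD05 of the same group and day. The mean log2 change of the valspodar dogs was 0.77 ± 1.32 (SD, n = 9), and 0.24 ± 0.91 without MN03 and PENN03 (SD, n = 7).

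ICAM1, the adhesion molecule gene, was above its Day 0 range in 5 nodes of Day 4, more than TNFAIP3 was. The lowest, median and highest levels at Day 0 were 7.40, 13.3 and 21.0 FPKM in the placebo dogs and 5.92, 9.48 and 21.4 FPKM in the valspodar dogs. At Day 4 the placebo libraries read 14.02 FPKM in MN05, 16.2 in MN08, 8.86 in MN09, 32.0 in PENN04 and 14.1 in PENN05. The valspodar libraries of Day 4 had a lowest, median and highest level of 5.07, 18.1 and 48.3 FPKM. Levels above the highest of all Day 0 libraries were seen at Day 4 in MN03 with 48.3, PENN03 with 36.9, PD05 with 28.8 and MN06 with 24.6 FPKM, all given valspodar, and in PENN04, given placebo, with 32.0 FPKM. The ranges of the 4 groups overlapped.

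ICAM1 was higher at Day 4 in 7 of 9 valspodar dogs, the same number as for the other 2 genes. The increase was spread over more dogs, with MN03 and PENN03 together giving 68.5% of the summed change. MN07 went from 8.26 to 16.6 FPKM (2.01 times) and PD05 went from 11.1 to 28.8 FPKM (2.60 times), while PD01 went down from 8.36 to 5.07 FPKM. The mean log2 change was 0.75 ± 0.99 (SD, n = 9), and 0.34 ± 0.65 without MN03 and PENN03 (SD, n = 7).

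**Figure D1:**
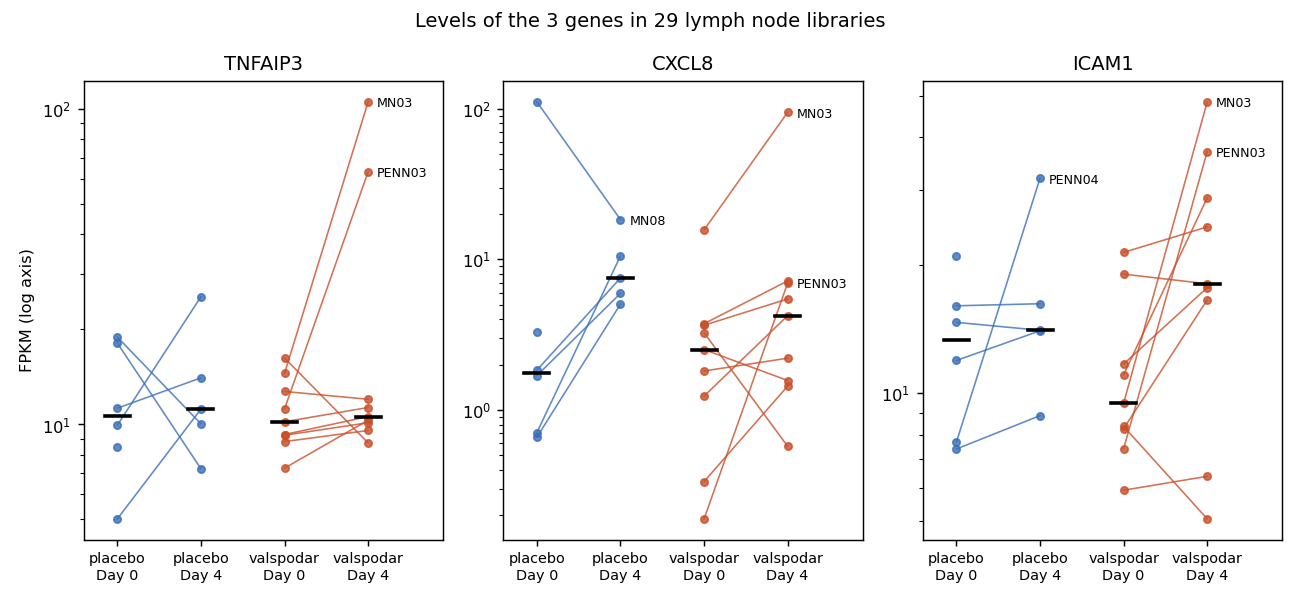
FPKM of TNFAIP3, CXCL8 and ICAM1 in each library on a log axis, with a line joining both days of a dog and a black bar at the group median. Day 4 TNFAIP3 is at 105 FPKM in MN03 and 63.1 FPKM in PENN03 with the other valspodar dogs between 8.74 and 12.02 FPKM, CXCL8 is highest in MN08 before placebo and MN03 on valspodar, and ICAM1 is more evenly spread.

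In order of mean log2(FPKM + 1), TNFAIP3 and ICAM1 were lowest in the valspodar Day 0 group, followed by placebo Day 0, placebo Day 4 and valspodar Day 4. CXCL8 was lowest in valspodar Day 0, followed by placebo Day 0, valspodar Day 4 and placebo Day 4. In this order, the differences between neighbouring groups ran from 0.02 to 0.39 for TNFAIP3, from 0.29 to 0.74 for CXCL8 and from 0.21 to 0.32 for ICAM1. All 9 such differences were smaller than the larger of the SDs of the groups they joined.

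The placebo dogs did not enter the study's list that chose the genes, so their change over 4 days was tested. The genes were still taken up with earlier results of these data known. No gene of the 3 passed. TNFAIP3 was higher at Day 4 in 3 of 5 placebo dogs, with a log2 difference between the groups of 0.17 ± 0.36 (SE; limma adjusted p = 1). CXCL8 was higher in 4 of 5, with a difference of 1.03 ± 0.99 (SE; limma adjusted p = 1). ICAM1 was higher in 4 of 5, with a difference of 0.32 ± 0.33 (SE; limma adjusted p = 1). For TNFAIP3, CXCL8 and ICAM1 the difference was larger than that of 79.3%, 99.2% and 90.7% of the genes tested. Such a rank takes no account of spread, and the SD of CXCL8 over libraries was above that of 97.5% of the genes. In all, limma called 0 of 11677 genes between the days in the placebo group, or 0% of those tested, with 430 at an unadjusted p under 0.05. This fit did not use the pairing by dog. With the dog as a block, limma again called 0 genes, with 805 at an unadjusted p under 0.05.

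An exact sign-flip test over the 5 placebo dogs, two-sided, gave p = 0.75 for TNFAIP3, 0.312 for CXCL8 and 0.188 for ICAM1, or 0.75, 0.469 and 0.469 after Benjamini-Hochberg adjustment over the 3 genes. The smallest p that 5 dogs allow is 0.0625. For CXCL8 the dog with the lower Day 4 level was MN08, from 111 to 18.4 FPKM, and the others were higher at Day 4 by 1.37 to 2.76 on the log2 scale. Without MN08 the limma difference was 1.69 ± 0.32 (SE), with an unadjusted p of 0.000572 and an adjusted p of 1, and without PENN04 it was 0.67 ± 1.16 (SE). The ICAM1 value rested on PENN04, from 7.68 to 32.0 FPKM: without it the limma difference was -0.05 ± 0.29 (SE). For TNFAIP3 it was -0.10 without PENN05.

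The contrasts with valspodar libraries gave the following values, without a test because these libraries chose the genes. Day 4 minus Day 0 in the valspodar dogs was 0.58 for TNFAIP3, 0.77 for CXCL8 and 0.75 for ICAM1 in log2, with SEs of 0.42, 0.65 and 0.36. These SEs ignore the pairing by dog. With the dog as a block the 3 values were the same, with SEs of 0.35, 0.39 and 0.30. The difference of the changes, valspodar minus placebo, was 0.41 ± 0.62 for TNFAIP3, -0.26 ± 1.16 for CXCL8 and 0.43 ± 0.54 for ICAM1 (SE). Without MN03 and PENN03 the same differences were -0.16 ± 0.36, -0.80 ± 0.997 and 0.02 ± 0.53. With all dogs the sign was positive for TNFAIP3 and ICAM1 and negative for CXCL8, and each of these differences between the changes was smaller than its SE.

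Between the arms at Day 0, valspodar minus placebo, the log2 differences were -0.02 ± 0.25 for TNFAIP3, -0.48 ± 0.84 for CXCL8 and -0.21 ± 0.28 for ICAM1 (SE). At Day 4 they were 0.39 ± 0.57, -0.74 ± 0.76 and 0.23 ± 0.46 (SE). The CXCL8 difference at Day 0 was 0.44 without MN08, and the TNFAIP3 difference, close to 0, ran from -0.22 to 0.12 when each dog was left out. Without MN03 and PENN03 the Day 4 differences were -0.25 ± 0.23 for TNFAIP3, -1.39 ± 0.43 for CXCL8 and -0.10 ± 0.42 for ICAM1 (SE), so that 2 signs turned. Without MN03 alone they were 0.07, -1.25 and 0.06. Over all genes, limma called 0 of 11677 genes (0%) between the days in the valspodar dogs, with 157 at an unadjusted p under 0.05. It called 0 (0%) between the arms at Day 0, with 503, and 0 (0%) for the difference of the changes, with 81. The fits of days did not use the pairing by dog. With the dog as a block they again called 0 genes, with 1314 in valspodar and 428 for the difference of the changes at an unadjusted p under 0.05. The small unadjusted counts thus depend on the fit. Between the arms at Day 4, limma called 1 gene (0.00856%), ENSCAFG00000011417, lower with valspodar. The files do not give its name, and it is none of the 3 genes. The same gene was called lower in the valspodar arm at Day 0, before any treatment, when PD04 was left out.

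**Figure D2:**
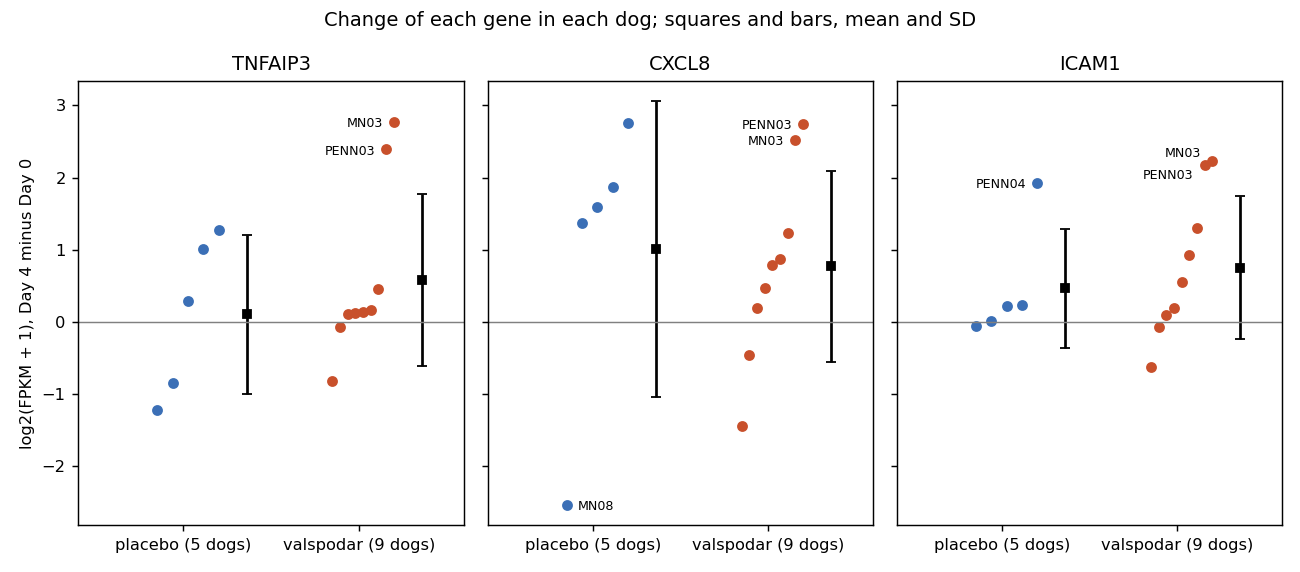
Change in log2(FPKM + 1) from Day 0 to Day 4 for each dog with both days, with the mean and SD beside the points. TNFAIP3 changes of the valspodar dogs gather near 0 apart from MN03 and PENN03 above and MN06 (-0.82) below, CXCL8 of the placebo dogs is up in 4 dogs and down in MN08, and ICAM1 of the placebo dogs is near 0 apart from PENN04.

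Whether the 3 genes moved together was asked across dogs, separately on each day. The valspodar libraries of both days entered the choice of the genes, so the values over all dogs are a description, and a test was made only in the 6 placebo dogs at Day 0. Over all 15 dogs at Day 0, TNFAIP3 with CXCL8 gave r = 0.480 and rho = 0.154, TNFAIP3 with ICAM1 gave r = 0.175 and rho = 0.121, and CXCL8 with ICAM1 gave r = 0.310 and rho = 0.271. The highest of these, TNFAIP3 with CXCL8, was 0.0973 without PENN04 and MN08, the dogs farthest from the median TNFAIP3. Without the dogs farthest on the x axis, TNFAIP3 with ICAM1 gave -0.0895 and CXCL8 with ICAM1 0.401. Single dogs also moved these values: TNFAIP3 with ICAM1 was 0.0389 without MN06 and 0.327 without MN09, and CXCL8 with ICAM1 was 0.202 without MN08. Within the 8 Minnesota dogs r was 0.574, 0.438 and 0.340 for the 3 pairs in the same order, and within the 9 valspodar dogs 0.185, 0.304 and 0.187.

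In the 6 placebo dogs at Day 0, no pair passed in an exact permutation test, two-sided, adjusted over 12 relations (3 pairs and 9 with the gene lists described further on). This test was chosen after seeing the data. TNFAIP3 with CXCL8 gave r = 0.605 (exact p = 0.232, adjusted 0.557) and rho = 0.543 (exact p = 0.297, adjusted 0.594). TNFAIP3 with ICAM1 gave r = 0.0805 (exact p = 0.847, adjusted 0.865) and rho = -0.0286 (exact p = 1, adjusted 1). CXCL8 with ICAM1 gave r = 0.408 (exact p = 0.525, adjusted 0.810) and rho = 0.429 (exact p = 0.419, adjusted 0.719). With 6 dogs the smallest p possible is 0.00139.

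At Day 4, over 14 dogs and again as a description, TNFAIP3 with CXCL8 gave r = 0.612 and rho = 0.143. TNFAIP3 with ICAM1 gave r = 0.561 and rho = 0.284, and CXCL8 with ICAM1 gave r = 0.413 and rho = 0.2. The high r values came with MN03 and PENN03, which lie apart from the other dogs: without them r was 0.0340 for TNFAIP3 with CXCL8 and -0.0295 for TNFAIP3 with ICAM1, over 12 dogs. In the plot of each pair across dogs, MN03 is at the upper right of all 3 panels of Day 4.

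**Figure D3:**
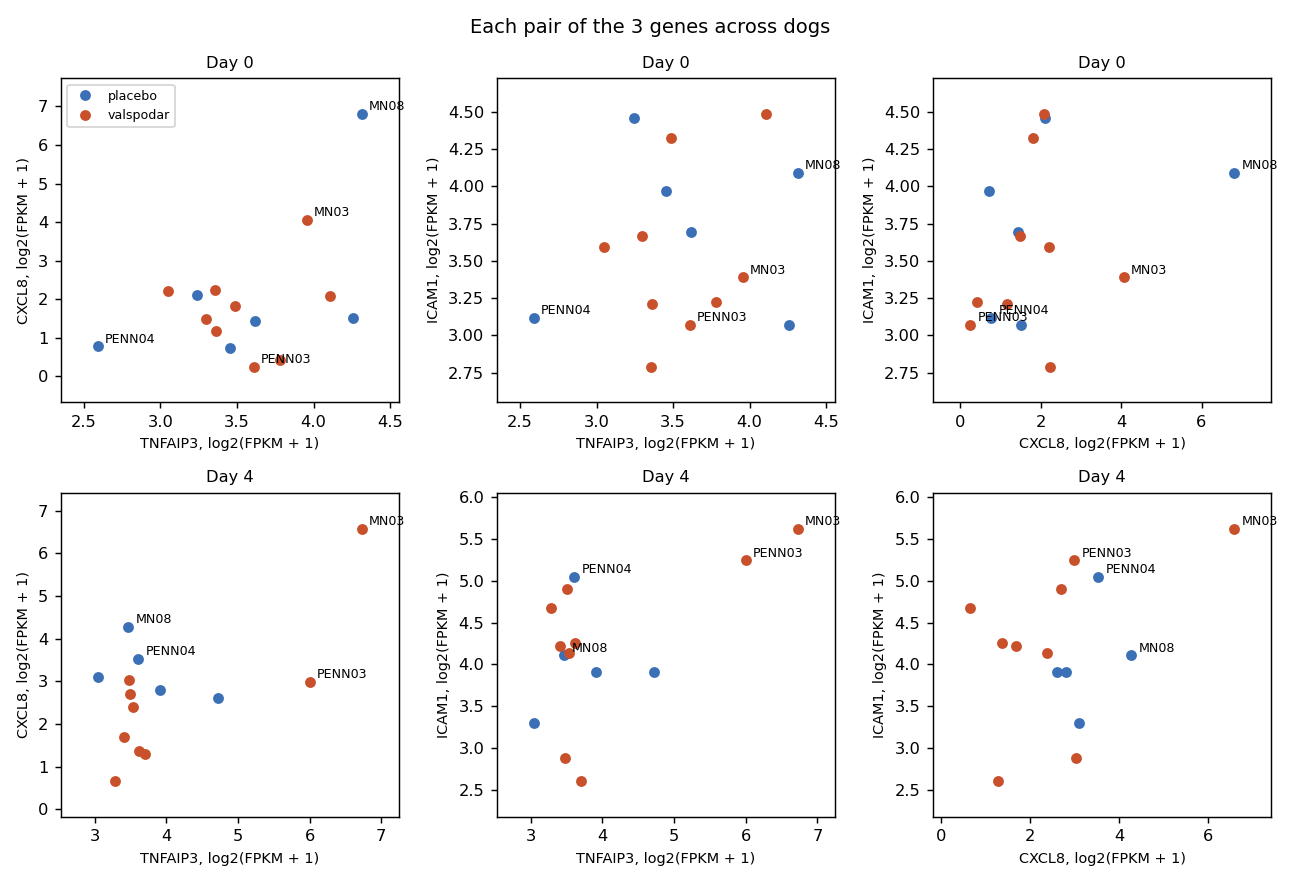
Each pair of genes in log2(FPKM + 1) at Day 0 (15 dogs, upper row) and Day 4 (14 dogs, lower row), with 1 point for each dog. At Day 4, MN03 is high for all 3 genes and PENN03 for TNFAIP3 and ICAM1, and the other 12 dogs show an r of 0.0340 for TNFAIP3 with CXCL8.

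The level of a gene at Day 0 was also compared with its level at Day 4 in the same 14 dogs. The values were r = 0.0881 and rho = -0.0813 for TNFAIP3, r = 0.532 and rho = 0.345 for CXCL8, and r = 0.204 and rho = 0.134 for ICAM1. These values are a description, since 9 of the dogs entered the choice of the genes. Without MN08 and MN03, the dogs with the highest CXCL8 at Day 0, the CXCL8 value was -0.195. For TNFAIP3 and ICAM1 it was 0.125 and 0.153 without the dogs farthest from the median. With single dogs left out, ICAM1 ran from 0.0228 without MN10 to 0.327 without PENN03, and TNFAIP3 from -0.110 without MN03 to 0.217 without MN09. Within the Minnesota dogs r was 0.0637, 0.594 and 0.491.

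The genes most like each of the 3 over all 29 libraries were different for each. The highest Spearman value was 0.847 for TNFAIP3, with ENSCAFG00000002797, 0.816 for CXCL8 and 0.901 for ICAM1, with ENSCAFG00000003260, and the files give no names for these genes. The 5 most like genes reached at least 0.752, 0.775 and 0.755. The 3 genes were not close to each other: the values were 0.319 for CXCL8 with ICAM1, 0.294 for TNFAIP3 with CXCL8 and 0.209 for TNFAIP3 with ICAM1, and CXCL8 held only place 1222 of 11676 among the genes most like TNFAIP3. Among the genes that have names here, TNFAIP3 was most like ATF3, a stress-induced transcription factor, with 0.676, and NR4A2, a nuclear receptor induced by signalling, with 0.624. CXCL8 was most like CSF3R, the receptor for granulocyte colony-stimulating factor, with 0.683, and SERPINA1, the elastase inhibitor alpha-1-antitrypsin, with 0.667. ICAM1 was most like PLAU, the urokinase-type plasminogen activator, with 0.682, and IL18, an interferon-gamma-inducing cytokine, with 0.680. All of these named genes came from lists that the study chose on these same samples.

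The marker and response lists could be used only in part, for the genes with an identifier: 3 of 7 neutrophil genes (CSF3R, MMP9, SERPINA1), 2 of 8 macrophage genes (the complement genes C1QB and C1QC) and 4 of 13 immediate early genes (EGR3, ATF3, NR4A1, NR4A2), which are transcribed within minutes of a stimulus, handling of tissue included. Endothelial and fibroblast genes had none. Each of these 9 genes was above 0 FPKM in every library. Their names came from lists that the study chose on these same samples, so they are not independent of these libraries. The summed level of the neutrophil genes ran from 4.67 to 67.0 FPKM in placebo Day 0, from 4.00 to 318 in placebo Day 4, from 0.454 to 51.6 in valspodar Day 0 and from 2.04 to 44.6 in valspodar Day 4. That of the macrophage genes ran from 14.4 to 169, from 35.3 to 143, from 33.5 to 263 and from 17.0 to 593 FPKM in the same order. That of the immediate early genes ran from 6.10 to 104, from 7.41 to 61.0, from 6.31 to 68.9 and from 6.00 to 589 FPKM. The group medians, in the same order, were 7.46, 28.7, 6.46 and 9.99 FPKM for the neutrophil genes. For the macrophage genes they were 86.1, 97.6, 69.1 and 199 FPKM.

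Both nodes with the most TNFAIP3 were the nodes with the most immediate early gene RNA. The 4 immediate early genes, like TNFAIP3, were named by lists that the study chose on these same samples. This overlap is therefore not independent of that choice. At Day 0, over 15 dogs and as a description, r was 0.757 and rho 0.775, and r was 0.881 without PENN04 and MN08, the dogs farthest from the median TNFAIP3, 0.777 within the Minnesota dogs and 0.836 within the valspodar dogs. In the 6 placebo dogs, whose libraries did not enter the list that chose TNFAIP3, r was 0.734 (exact permutation p = 0.075, adjusted 0.3) and rho 0.886 (exact p = 0.0333, adjusted 0.35), which did not pass. At Day 4, as a description, r was 0.913 and rho 0.481, and r was 0.575 without MN03 and PENN03. The summed immediate early genes were 589 FPKM in PENN03 and 306 FPKM in MN03 at Day 4, the highest of all 29 libraries, and the next was MN09 at Day 0 with 104 FPKM, a node with 18.1 FPKM of TNFAIP3. MN08 at Day 0 had slightly more TNFAIP3, 18.9 FPKM, with an immediate early sum of 18.9 FPKM, only place 10 of 29. The group medians of this sum lay between 8.16 and 26.2 FPKM. Their part in the TNFAIP3 levels was not tested.

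CXCL8 was highest in nodes with high neutrophil genes: the 5 libraries with the most CXCL8 were also the 5 with the highest neutrophil sums. They were both libraries of MN08, both of MN03 and the Day 4 library of PENN04, so they are not 5 separate dogs. At Day 0, over 15 dogs and as a description, r was 0.764 and rho 0.582, and r was 0.822 within the Minnesota dogs and 0.757 within the valspodar dogs. The value rested on MN08 and MN03, without which r was 0.424. In the 6 placebo dogs r was 0.832 (exact permutation p = 0.0292, adjusted 0.175) and rho 0.6 (exact p = 0.242, adjusted 0.58), which did not pass. The 3 neutrophil genes came from the study's placebo list, so they are not independent of these libraries. At Day 4, as a description, r was 0.504 and rho 0.560.

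Among those 5 libraries the order differed. MN08 had a neutrophil sum of 67.0 FPKM at Day 0 and 79.4 FPKM at Day 4, while CXCL8 was 111 FPKM and then 18.4 FPKM. PENN04 at Day 4 had the highest neutrophil sum, 318 FPKM, with CXCL8 at 10.5 FPKM. MN03 went from 51.6 to 44.6 FPKM of neutrophil genes while CXCL8 went from 15.7 to 94.9 FPKM. The part of neutrophils in the CXCL8 levels was not tested.

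Over 15 dogs, ICAM1 had lower values with the lists than these. With the macrophage genes r was 0.344 and rho 0.375 at Day 0, as a description, and r was 0.536 without MN06 and PD04, 0.0505 within the Minnesota dogs and -0.0484 within the valspodar dogs. In the 6 placebo dogs r was 0.887 (exact permutation p = 0.0236, adjusted 0.175) and rho 0.829 (exact p = 0.0583, adjusted 0.35), which did not pass. At Day 4, as a description, r was 0.529 and rho 0.543. MN06 combined an ICAM1 level of 24.6 FPKM at Day 4 with the lowest macrophage sum of its group, 17.0 FPKM, and PD05 combined 28.8 FPKM with the highest of all, 593 FPKM. The other Day 0 relations of the 3 genes with the lists had r between -0.00233 and 0.321 over 15 dogs, and in the placebo dogs none passed. By arm some of them differed in sign. For ICAM1 with the immediate early genes r was 0.600 in the valspodar and -0.446 in the placebo dogs. For ICAM1 with the neutrophil genes it was -0.0263 and 0.765 in the same order.

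**Figure D4:**
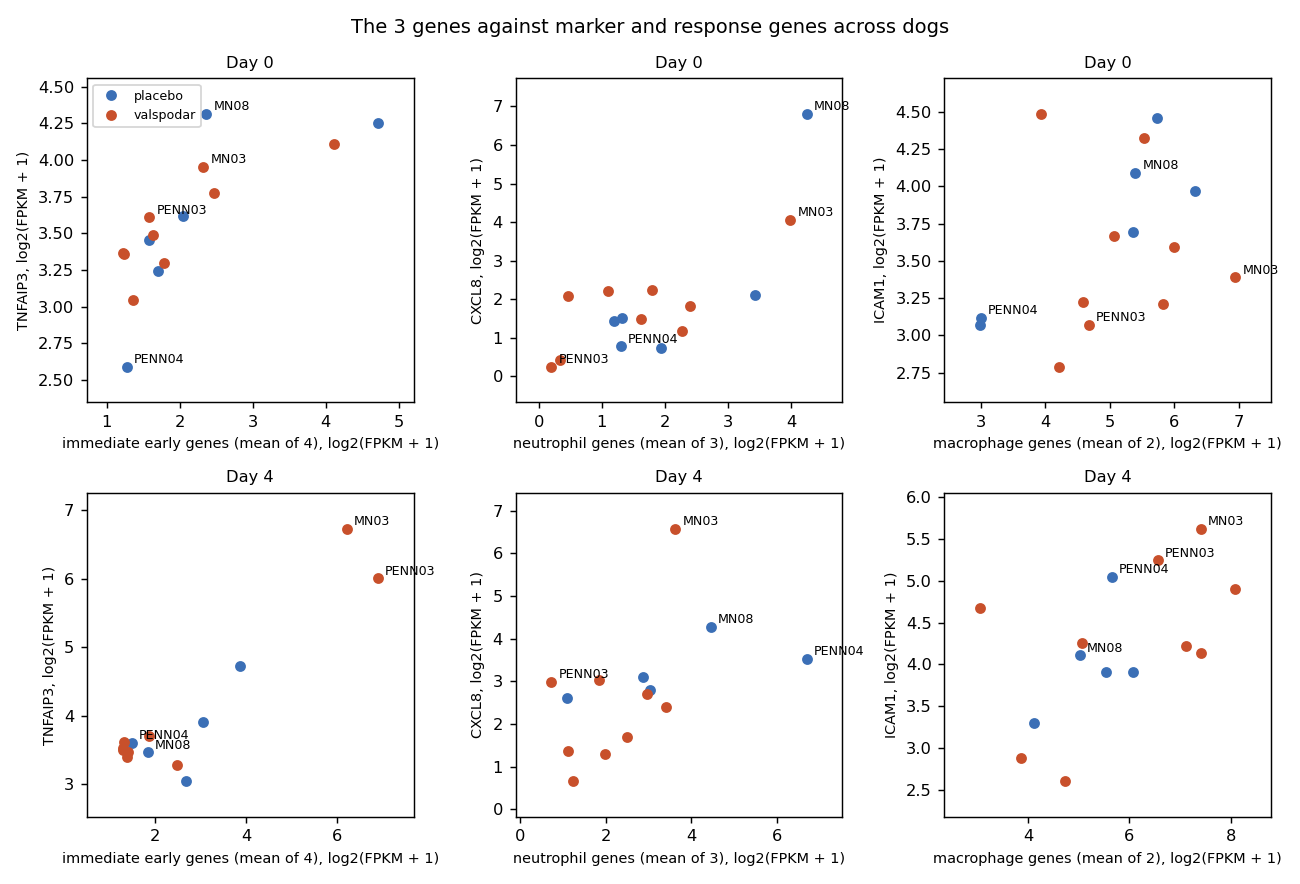
TNFAIP3 against the mean of 4 immediate early genes, CXCL8 against the mean of 3 neutrophil genes and ICAM1 against the mean of 2 macrophage genes, all in log2(FPKM + 1), at Day 0 (15 dogs, upper row) and Day 4 (14 dogs, lower row). The Day 0 r is 0.757 for TNFAIP3, 0.764 for CXCL8 and 0.344 for ICAM1, and MN08 and MN03 are the dogs at the upper right of the CXCL8 panel of Day 0.

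Of the wider pathway, only 2 listed genes had an identifier: PLAU, 1 of 39 other NF-kB target genes, and ITGAM, 1 of 10 ICAM1 ligands and related adhesion genes, which encodes the alpha chain of the integrin Mac-1. Neither passed in either direction in any of the 5 comparisons, which called at most 1 of 11677 genes. Both were named by lists that the study chose on these same samples, so this is no independent test of the pathway. PLAU reached 59.7 FPKM in MN03 and 11.4 FPKM in PENN03 at Day 4, from 12.2 and 0.955 FPKM at Day 0, and its group means were 2.57 ± 2.41 in placebo Day 0, 4.67 ± 3.66 in placebo Day 4, 3.61 ± 3.57 in valspodar Day 0 and 11.0 ± 18.8 FPKM in valspodar Day 4 (SD). ITGAM was 3.51 and 2.49 FPKM in MN03 and 0.102 and 0.116 FPKM in PENN03 at Day 0 and Day 4. PLAU was thus high in the node where all 3 genes were high, and ITGAM was highest in PENN04 at Day 4, with 14.3 FPKM.

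The trial site and the course of the disease were set beside the Day 0 levels, before any treatment, again as a description because 9 of the 15 libraries entered the choice of the genes. In the 8 Minnesota dogs TNFAIP3 was 3.78 ± 0.43 on the log2 scale, against 3.31 ± 0.40 in the 7 other dogs (SD), a difference of 0.47. CXCL8 was 2.60 ± 1.93 against 1.19 ± 0.83, a difference of 1.41, which was 0.81 without MN08. The median CXCL8 level was 2.55 FPKM in the Minnesota dogs, 2.92 in the PD dogs and 0.660 in the Pennsylvania dogs, so the Minnesota nodes were not the highest by their median. ICAM1 differed by -0.13, Minnesota minus other, and by -0.26 to -0.00036 when each dog was left out.

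The duration of remission was known for 14 dogs and censored in 1 of them. Spearman's rho was -0.231 for TNFAIP3, 0.134 for CXCL8 and 0.112 for ICAM1. Pearson's r over the 13 uncensored dogs was -0.450, -0.237 and -0.0498. For TNFAIP3 it was -0.665 without MN09 and -0.181 without PENN04, the lowest and highest of the values with each dog left out, for CXCL8 -0.367 without PENN05 and -0.0532 without MN08, and for ICAM1 -0.205 without PD03 and 0.121 without PENN04. Without the 2 dogs farthest from the median level r was -0.0486, 0.208 and -0.212, and within the 7 Minnesota dogs 0.235, -0.239 and -0.351. By arm, r was -0.410, -0.0825 and 0.605 in the 7 uncensored valspodar dogs and -0.485, -0.307 and -0.531 in the 6 placebo dogs. The ICAM1 value thus had opposite signs in the arms, each from few dogs and with no test.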

How the data were processed

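The 3 genes and the gene lists were chosen with earlier results of these data known. The authors trimmed the paired-end reads with Trimmomatic 0.33, mapped them to CanFam3 with HISAT2 2.0.2, estimated abundance per library with Cufflinks 2.2.1 and deposited the Cuffnorm table, with FPKM per library and no pooling. Their methods name the classic-fpkm scaling, but the median-ratio factors of the table were already close to 1, as after a scaling across libraries, so the scaling was not settled. Columns of the authors' Cuffdiff tests, with fold changes and p-values, were not used.

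Here, limma 3.58.1 in R 4.3.3 (lmFit, eBayes with a trend) was fitted to log2(FPKM + 1) of the 11677 genes whose mean over the 29 libraries reached 1 FPKM. Each fit held the groups compared and no term for the dog. The p-values were adjusted by Benjamini-Hochberg, and calls were made under 0.05. A log2 difference on this scale understates the change of low genes. Correlations used log2(FPKM + 1). Those over libraries that chose the genes, and the site and remission values, are printed without the permutation tests planned for them. The pair and list correlations in the placebo dogs alone were tested exactly. List levels are means of log2(FPKM + 1). Sign-flip tests were exact. The fits and correlations were tested on simulated data, in Python 3.11.15 for all but the fits. Per the labels the libraries are paired by dog, and the deviations of a dog's libraries from the group means correlated over genes from 0.199 to 0.678 in 14 dogs. Values were recomputed with a pseudocount of 0.1, without the filter, at a mean of 5 FPKM, after quantile or median-ratio scaling, with group means removed from correlations, with the dog as a block, and without each dog. Relative depth was fitted to the most frequent ratio of rare genes between libraries, and 99.5% of 367 library pairs lay within 0.04 of the fitted log2 ratio. Read numbers were not recovered, so no counting interval is given. Besides the 3 genes, those named were the 5 most like each (here the first for 2 of the genes) and listed pathway and marker genes with an identifier. The other named or numbered genes (IL18, ATF3 and NR4A2 as nearest named genes, and ENSCAFG00000011417) were chosen after their values were seen. Symbols were taken from the study's gene lists, and no sequence or position is printed because no matching reference was used here.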

Additional observations from a re-analysis of the deposited data

Results flagged for a closer look

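In 18 sets of values searched (each gene in each of 4 groups, and its log2 changes in each arm), 5 held a value far from the others by Dixon's criterion. By chance it marks about 1 in 20 sets of normally distributed values. That rate does not apply to the valspodar sets, since they chose the genes, nor to skewed FPKM levels. The sets also share values: CXCL8 of MN08 at Day 0 enters both its placebo Day 0 set and its placebo change set. Levels were searched in FPKM, where high values stand out more than on a log scale. CXCL8 accounts for 4 of the 5. In placebo Day 0 the library of MN08, at 111 FPKM, was apart from the other 5, at 0.660 to 3.31 FPKM, with a gap of 0.976 of the range (0.773 in log2(FPKM + 1), also past the criterion). In valspodar Day 0 the library of MN03, at 15.7 FPKM, was apart from 8 libraries at 0.189 to 3.74 FPKM, with a gap of 0.771 of the range, but 0.476 in log2, which misses the criterion. In valspodar Day 4 the library of MN03, at 94.9 FPKM, was apart from 8 at 0.574 to 7.20 FPKM, with a gap of 0.930 of the range (0.598 in log2, past it). The gaps in log2 were computed after seeing the data. The log2 change of CXCL8 in placebo dog MN08 was -2.53, against 1.37 to 2.76 in the other 4, a gap of 0.737 of the range. For ICAM1, the log2 change of placebo dog PENN04 was 1.93, against -0.06 to 0.23 in the other 4, a gap of 0.854 of the range. The 2 high Day 4 values of TNFAIP3, in MN03 and PENN03, met no such criterion because each has the other as a neighbour.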

How the results depend on the processing

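Of 1074 recomputed values, 1022 kept their direction and also their side of the threshold where tested. Those given as a description had to keep their direction and move by less than 1 SD between libraries (differences) or the SE of r (correlations), and counts of called genes to stay within 1.5 times, so large moves of widely spread values count as kept, such as TNFAIP3 in valspodar from 0.58 to 0.01 without MN03 and PENN03. Leaving out MN03 and PENN03 together, chosen after seeing the data, gave -0.25 for TNFAIP3 and -0.10 for ICAM1 between the arms at Day 4, -0.16 for TNFAIP3 in the difference of the changes, and at Day 4 r = 0.0340 for TNFAIP3 with CXCL8, -0.0295 for TNFAIP3 with ICAM1, 0.0402 for CXCL8 with ICAM1, and with the immediate early genes 0.575 for TNFAIP3, 0.0250 for CXCL8 and -0.163 for ICAM1. It gave -0.268 for TNFAIP3 at Day 0 with Day 4. TNFAIP3 with macrophage genes at Day 0, -0.00233 as reported, was 0.00873 with a pseudocount of 0.1 and 0.00212 with the means of the treatment groups removed. With no filter on low genes, limma called 1 gene between the days in placebo in place of 0.

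Leaving out each dog in turn gave ranges across 0 for r of TNFAIP3 with neutrophil genes at Day 0 (-0.0815 to 0.305) and Day 4 (-0.401 to 0.0520), TNFAIP3 with macrophage genes at Day 0 (-0.404 to 0.253), ICAM1 with immediate early genes at Day 0 (-0.122 to 0.494), TNFAIP3 at Day 0 with Day 4 (-0.110 to 0.217) and ICAM1 with remission (-0.205 to 0.121). So did the placebo change of TNFAIP3 (-0.10 to 0.48 in limma, -0.19 to 0.43 over paired dogs) and of ICAM1 in limma (-0.050 to 0.47), the difference between the arms at Day 0 of TNFAIP3 (-0.22 to 0.12) and CXCL8 (-0.77 to 0.44), and the difference of the changes of CXCL8 (-0.93 to 0.095). Ranges that did not cross 0 but moved a value by over 1.5 times were found between the arms at Day 4 for TNFAIP3 (0.066 without MN03 to 0.63 without PENN05), CXCL8 (-1.25 without MN03 to -0.48 without MN08) and ICAM1 (0.040 without MN09 to 0.48 without PENN04), at Day 0 for ICAM1 (-0.34 without MN09 to -0.060 without PD04), in the difference of the changes for TNFAIP3 (0.10 without MN09 to 0.68 without PENN05) and ICAM1 (0.25 without MN03 to 0.80 without PENN04), and in the valspodar change of TNFAIP3 (0.31 without MN03). The placebo change over paired dogs ran from 0.57 without PENN04 to 1.89 without MN08 for CXCL8 and was 0.10 for ICAM1 without PENN04. Among correlations 17 had such a range, among them at Day 0 for TNFAIP3 with CXCL8 (0.223 to 0.561), TNFAIP3 with ICAM1 (0.0389 to 0.327) and CXCL8 with ICAM1 (0.202 to 0.377), for ICAM1 at Day 0 with Day 4 (0.0228 to 0.327), and at Day 4 for TNFAIP3 with CXCL8 (0.147 to 0.698), TNFAIP3 with ICAM1 (0.360 to 0.618), CXCL8 with ICAM1 (0.101 to 0.534) and CXCL8 with immediate early genes (0.142 to 0.631), and for remission TNFAIP3 (-0.665 to -0.181) and CXCL8 (-0.367 to -0.0532). The genes called by limma between the days in placebo, and between the arms at Day 0, ranged from 0 to 1. Except where the alternative tested more genes or fewer dogs, the cause was not tested.

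With the dog as a block (the paired fit), limma called 0 genes between the days in placebo, 0 in valspodar and 0 for the difference of the changes, with 805, 1314 and 428 at an unadjusted p under 0.05, and it changed no other call. The placebo changes were then 0.10 for TNFAIP3, 1.01 for CXCL8 and 0.47 for ICAM1. Read numbers and gene lengths are not in the table, so low CXCL8 values such as 0.189 FPKM carry an unknown counting error.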
